A study of Homo sapiens with 4 samples.

Results

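The mechanistic target of rapamycin complex 1 (mTORC1) is a protein kinase complex that promotes protein synthesis and restrains autophagy when amino acids and growth factors are available. Amino acids act through the Rag GTPases, which the Ragulator complex holds on the lysosome and which bring mTORC1 to the small GTPase RHEB, while the TSC complex keeps RHEB inactive. Myeloma cells secrete antibody chains, an activity with a high demand for amino acids and for translation. The genes described here are 35 named components of this pathway, taken by symbol from a fixed list that used no measured value, out of 22187 genes in the tables. All 35 were found, each under 1 gene identifier.

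RNA from 4 cultures of human myeloma cells was sequenced. The KMS28BM and KMS18 lines, labelled K28BM and K18 and as plasma cells of bone marrow, both carry the t(4;14) translocation. From each line, 1 library came from cells in which PKCα, the kinase encoded by PRKCA, was stably knocked down, and 1 from a control labelled Luc. The labels describe neither the knockdown sequence nor the number of clones, and nothing says whether the cultures were repeated. A difference within a line therefore has no replicate check. A p-value over both lines sets the size of the joint change against an error estimate. That estimate rests partly on how alike the 2 lines moved, and for the larger part on the spread of other genes.

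The libraries held 37940949 to 39507281 expected counts, and 11100 to 11591 genes reached 1 FPKM (fragments scaled to gene length and to library size). PRKCA was listed at 2.43 FPKM in the KMS28BM knockdown, against 10.86 FPKM in its control. In KMS18 it was listed at 1.47 FPKM in the knockdown, against 7.46 FPKM in the control. All 9 plasma cell markers were above 1 FPKM in every library, and their summed level was 7930 and 6600 FPKM in the KMS28BM and KMS18 knockdowns, against 8660 and 7690 FPKM in the controls. JCHAIN made up most of that sum, and 7 of the other 8 markers were lower in both knockdowns, CD38 being the exception. XBP1, a transcription factor of secretory cells, was at 265.05 and 196.15 FPKM in the KMS28BM and KMS18 knockdowns, against 472.19 and 359.95 FPKM in the controls. SDC1, the plasma cell surface marker CD138, was at 142.75 and 155.73 FPKM in the KMS28BM and KMS18 knockdowns, against 217.03 and 238.61 FPKM in the controls. The markers of monocytes and macrophages summed to 0.52 FPKM at most and those of erythroid cells to 0.61 FPKM at most, where HBA1 and ALAS2 had no listed value and counted as 0. Stroma and endothelium markers summed to 1.16 and 2.61 FPKM in the KMS28BM and KMS18 knockdowns and to 0.95 and 0.65 FPKM in the controls, where COL3A1 had no listed value. The T and NK cell markers summed to 3.55 and 22.8 FPKM in the KMS28BM and KMS18 knockdowns and to 1.33 and 8.9 FPKM in the controls. CD3E made up most of that sum, while CD3D stayed at 0.22 FPKM or less, and no part of these markers in the results below was tested.

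One member, TSC1, fell with the knockdown, and its 3′ UTR holds the short words that an earlier search of these data had found in many genes that fell. The core word is AGTCTA, read on the transcript strand. A longer form adds an A after it, as in AGTCTAA. Another adds a C before it and reads CAGTCTA, so both longer forms contain the core word. TSC1 encodes hamartin, the scaffold of the TSC complex. The windows that follow are 30 bases each from the 3′ UTR of TSC1, in transcript order, with the longest match to CAGTCTAA in capitals, and they are shown because no other member holds as many copies.
TSC1 site at UTR base 349, chr9:132895869-132895898: atttaatctttgAGTCTAAcacaccacttt
TSC1 site at UTR base 1178, chr9:132895040-132895069: taatggcagagCAGTCTAAacagagtccgg
TSC1 site at UTR base 1802, chr9:132894416-132894445: aaaacccaataCAGTCTAgtttcctggttc
TSC1 site at UTR base 2472, chr9:132893746-132893775: cgttaagggcagAGTCTAccttgaaaccaa
TSC1 site at UTR base 2833, chr9:132893385-132893414: gctctgctataCAGTCTAtaaaaattgtta

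These sequences come from GENCODE version 29 transcripts on GRCh38, where TSC1 lies on the minus strand and its longest 3′ UTR has 4887 bases. The words occurred in 8 of its 17 annotated coding transcripts with a 3′ UTR. Of the other members, LAMTOR3, SESN1, SESN3 and WDR59 also held AGTCTA, which made 5 of 35, or 14.3%, against 25.4% of the 12775 tested genes with an annotated 3′ UTR. LAMTOR3, SESN1, SESN3 and WDR59 did not pass the knockdown test described below (edgeR adjusted p from 0.282 to 0.651). PRKCA itself holds 1 copy, which is shown beside the 2 copies of LAMTOR3, a Ragulator subunit.
PRKCA site at UTR base 6288, chr17:66810313-66810342: gttactattttgAGTCTAAaggttttctaa
LAMTOR3 site at UTR base 235, chr4:99881742-99881771: cagaaatggttCAGTCTAtcacagctccca
LAMTOR3 site at UTR base 1125, chr4:99880852-99880881: gttcaggaatgCAGTCTAtcattcagagtt

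All of these genes except PRKCA lie on the minus strand, and each match is a description of the sequence, not a shown site of action. Among all tested genes, AGTCTA stood in the 3′ UTR of 54.1% of those that fell, 16.1% of those that rose and 23.9% of those not called. The words were chosen on these samples, so these shares are not independent evidence. By number of copies, 3.61% of 9532 genes with no copy were called lower, 10.4% of 2363 genes with 1 copy, 16.7% of 612 with 2 copies, 22.2% of 171 with 3 copies, 15.8% of 57 with 4 copies and 27.5% of 40 genes with 5 or more copies, where TSC1 belongs. The part of the words in the change of TSC1 was not tested, and long 3′ UTRs hold more copies of any word. EIF4EBP2, which rose, has a 3′ UTR of 6871 bases without the word. Those of RPS6KB1, FNIP2 and RRAGD, at 3776, 3505 and 3420 bases, also lack it, and these genes were not called. The longest among the members, 7742 bases in SESN3, holds it, and SESN3 was not called.

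**Figure D1:**
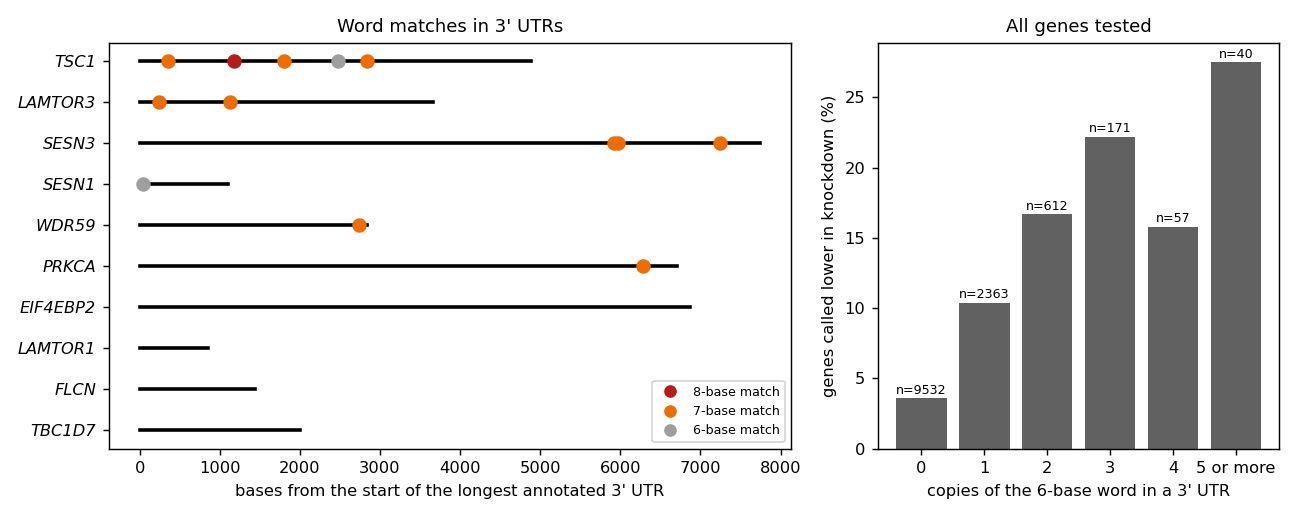
Left, matches to the 6-base word and its 7-base and 8-base extensions (dots) along the longest annotated 3′ UTR (black line, in bases from its start) of 9 members and PRKCA. TSC1 has 5 matches, while EIF4EBP2, LAMTOR1, FLCN and TBC1D7 have none. LAMTOR3, SESN1, SESN3 and WDR59 also have matches and were not called in the knockdown. Right, the percentage of tested genes called lower in the knockdown by number of copies of the 6-base word, with the number of genes above each bar; it is 3.61% with no copy and 27.5% with 5 or more.

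Nearly the whole pathway was transcribed in these cells. Of the 35 genes, 34 were at 1 FPKM or more in every library and 22 were at 10 FPKM or more in every library. The exception was SESN3, a member of the sestrin family, at 0.37 and 0.72 FPKM in the KMS28BM and KMS18 knockdowns and 0.38 and 0.93 FPKM in the controls. On the FPKM scale, EIF4EBP1, the translation repressor 4E-BP1, had the highest level in 3 libraries, and RHEB, the direct activator of mTORC1, had the highest in the KMS18 knockdown. Expected counts per member and library ran between 140 and 14469, and all 35 passed the filter on low counts.

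**Figure D2:**
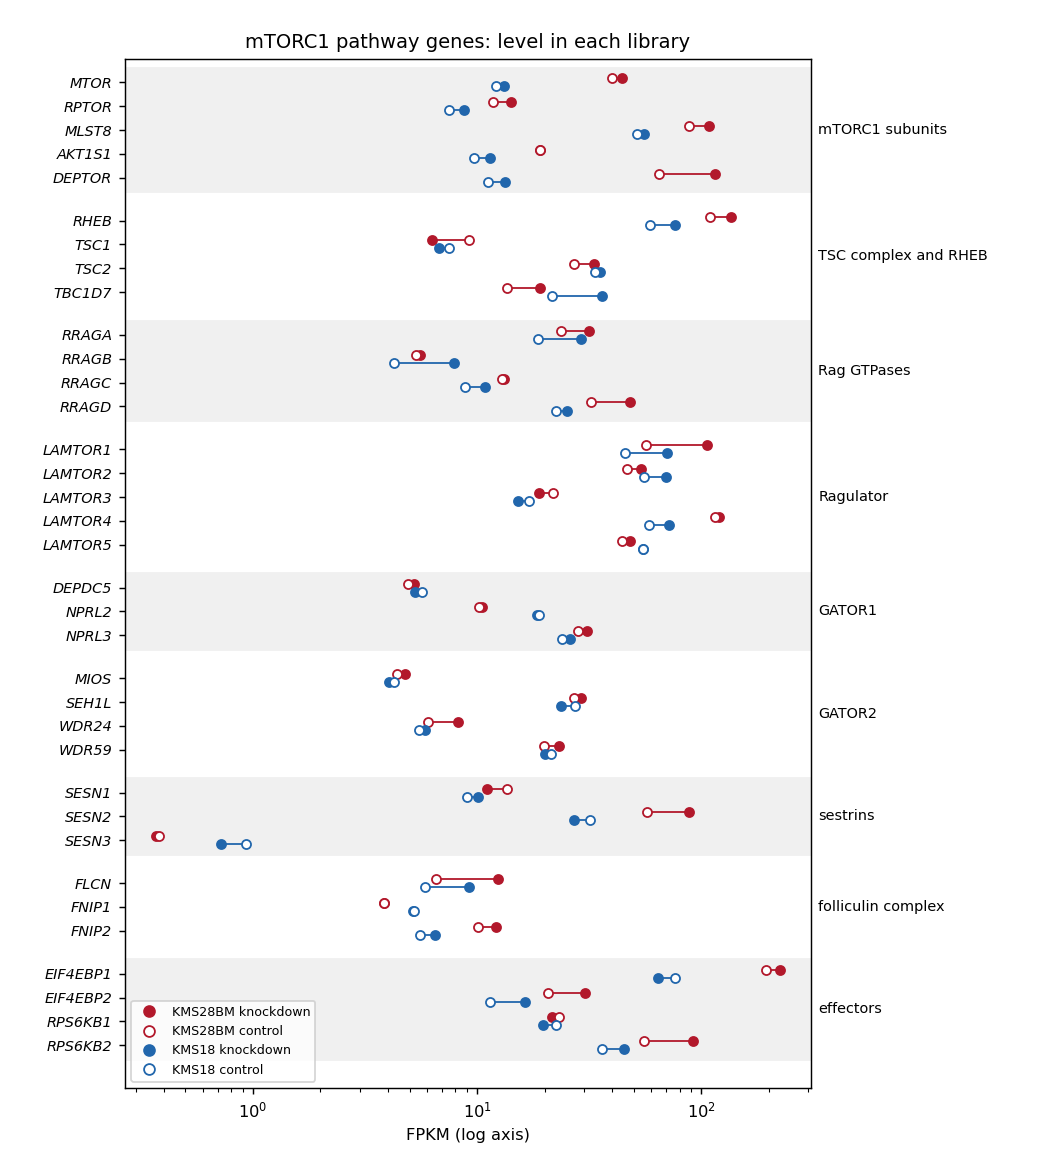
FPKM (log axis) of the 35 members in each library, grouped by complex; filled circles are knockdown and open circles control, red KMS28BM and blue KMS18, and a line joins the 2 libraries of a cell line. All members except SESN3 lie above 1 FPKM in every library, and DEPTOR has the widest gap between the lines.

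Across both lines, 4 of the 35 members rose and 1 fell in the knockdown, by edgeR's quasi-likelihood test with cell line in the model and Benjamini-Hochberg adjustment over 14870 genes. Over all tested genes 3.57% rose and 5.25% fell, and 8.82% passed in either direction, against 14.3% of the members. The members that rose were LAMTOR1, FLCN, EIF4EBP2 and TBC1D7, and TSC1 fell. The median log2 difference of the members was 0.10, against 0.018 for all tested genes, and 25 of 35 members were above 0. Adjusted p-values of the other 30 members ran from 0.0542 to 0.998. Counts in bulk cultures cannot tell fewer transcripts per cell from fewer cells that carry them. The 5 calls were the same in number with median of ratios scaling and with DESeq2, although DESeq2 called RPS6KB2 in place of TBC1D7. None of the 35 passed with edgeR without a filter on low counts, with limma on log2(FPKM + 1), where SESN3 was filtered out, or with edgeR without the cell line term. At an unadjusted p under 0.05 those 3 settings had 10, 9 and 0 members.

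**Figure D3:**
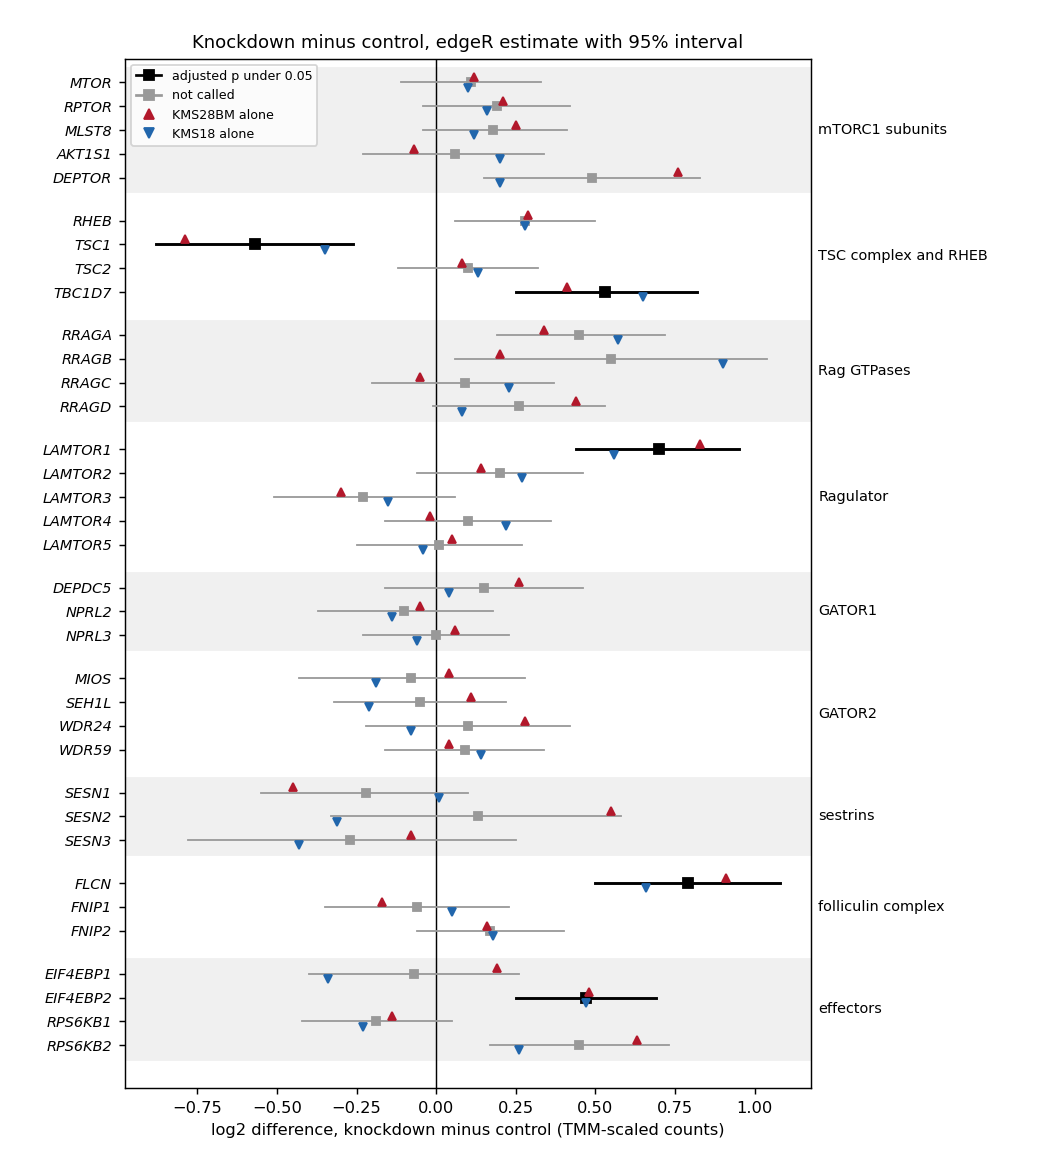
Log2 difference, knockdown minus control, of each member on TMM-scaled counts: squares with bars are the edgeR estimate over both lines with its 95% interval (black where the adjusted p was under 0.05, grey otherwise), and triangles are the value in KMS28BM (red, up) and KMS18 (blue, down) alone. LAMTOR1, FLCN, EIF4EBP2 and TBC1D7 lie right of 0 in both lines and TSC1 left of 0 in both.

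LAMTOR1 (ENSG00000149357.9, chr11:72085895-72103387, minus strand, GRCh38) encodes the lipid-anchored subunit that fastens Ragulator to the lysosomal membrane. It was listed at 106.18 FPKM in the KMS28BM knockdown, against 56.52 FPKM in the control. In KMS18 it was listed at 70.58 FPKM in the knockdown, against 45.48 FPKM in the control. Both knockdown libraries lay above both controls. The log2 difference was 0.70 (SE 0.11, edgeR adjusted p = 0.0138, n = 2 lines), higher in 2 of 2 lines, with a 95% interval of 0.44 to 0.95. The other 4 Ragulator subunits did not pass the test. LAMTOR2, LAMTOR4 and LAMTOR5 had log2 differences of 0.20, 0.10 and 0.01, and LAMTOR3, which with LAMTOR2 forms a scaffold pair, had -0.23 (edgeR adjusted p = 0.282). The FPKM ratio of LAMTOR1 to LAMTOR3 was 5.64 and 4.62 in the KMS28BM and KMS18 knockdowns, against 2.58 and 2.65 in the controls. LAMTOR3 was the only one of these 4 subunits with a negative difference, so its pair with LAMTOR1 shows the widest shift.

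FLCN (ENSG00000154803.12, chr17:17212212-17237188, minus strand, GRCh38) encodes folliculin, which acts with FNIP1 or FNIP2 as the GTPase activator of RRAGC and RRAGD. Its level was 12.46 FPKM in the KMS28BM knockdown, against 6.54 FPKM in the control, and 9.19 FPKM in the KMS18 knockdown, against 5.85 FPKM in the control. Both knockdown libraries again lay above both controls, and the log2 difference was 0.79 (SE 0.12), with a 95% interval of 0.50 to 1.08 (edgeR adjusted p = 0.0145). The partners did not pass: FNIP2 had a log2 difference of 0.17 (edgeR adjusted p = 0.317) and FNIP1 one of -0.06 (edgeR adjusted p = 0.816). FLCN shares 11.9% of its annotated exonic bases with AC055811.2 on the same strand, so some of its reads are uncertain.

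EIF4EBP2 (ENSG00000148730.6, chr10:70404379-70428618, plus strand, GRCh38) encodes 4E-BP2, which blocks the cap-binding factor eIF4E until mTORC1 phosphorylates it. It stood at 30.41 FPKM in the KMS28BM knockdown, against 20.66 FPKM in the control, and at 16.41 FPKM in the KMS18 knockdown, against 11.40 FPKM in the control. Its change was of nearly one size in both lines, 0.48 in KMS28BM and 0.47 in KMS18 on TMM-scaled counts. The joint estimate was 0.47 (SE 0.09) and passed the test (edgeR adjusted p = 0.0285). The 2 groups overlapped, because the KMS28BM control lay above the KMS18 knockdown.

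TBC1D7 (ENSG00000145979.17, chr6:13266542-13328583, minus strand, GRCh38) is the third subunit of the TSC complex. It reached 19.19 FPKM in the KMS28BM knockdown, against 13.65 FPKM in the control, and 36.20 FPKM in the KMS18 knockdown, against 21.58 FPKM in the control. The KMS18 control lay above the KMS28BM knockdown, so the groups overlapped. The log2 difference was 0.53 (SE 0.12, edgeR adjusted p = 0.0433), and DESeq2 gave an adjusted p of 0.0629. Its exons share 8.43% of their bases with PHACTR1 on the opposite strand, which the library kit does not separate. They also share 6.84% with AL008729.1 on the same strand.

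TSC1 (ENSG00000165699.13, chr9:132891348-132946874, minus strand, GRCh38) was listed at 6.32 FPKM in the KMS28BM knockdown, against 9.19 FPKM in the control. In KMS18 it was listed at 6.74 FPKM in the knockdown, against 7.49 FPKM in the control. Both knockdown libraries lay below both controls. Expected counts were 1420 and 1572 in the KMS28BM and KMS18 knockdowns, against 2354 and 1923 in the controls. On counts the log2 difference was -0.57 (SE 0.13, edgeR adjusted p = 0.0448, 95% interval -0.88 to -0.26). With a filter at 5 CPM in at least 2 libraries the adjusted p was 0.0519, and limma on log2(FPKM + 1) gave a difference of -0.31 (adjusted p = 0.23). The change was -0.79 in KMS28BM and -0.35 in KMS18 on TMM-scaled counts. TSC2, the catalytic partner that switches RHEB off, had a log2 difference of 0.10 (edgeR adjusted p = 0.543).

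FPKM divides counts by a gene length, and the authors' length for TSC1 differed between libraries. It was 5774 and 6171 bases in the KMS28BM and KMS18 knockdowns, against 6515 and 6778 bases in the controls, so it fell by 11.4% in KMS28BM and fell by 8.96% in KMS18. This feature of TSC1 was picked out after its values were seen. In 31 of the 35 members the length moved by under 10% in both lines. DEPDC5, the GATOR1 subunit that contacts the Rag GTPases, moved the other way in both lines, with 17.9% and 15.3% longer values in the KMS28BM and KMS18 knockdowns. RRAGB was 15.8% longer in the KMS28BM knockdown, at 1909 bases against 1649 bases in the control, and 3.85% longer in the KMS18 knockdown. WDR59, a GATOR2 subunit, was the one member past 20%, with 1864 bases in the KMS18 knockdown against 1528 bases in the control. In KMS28BM its length was 1643 bases in the knockdown and 1767 bases in the control. Among all genes at 1 FPKM, 3.08% moved by 20% or more in KMS28BM and 3.7% in KMS18.

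**Figure D4:**
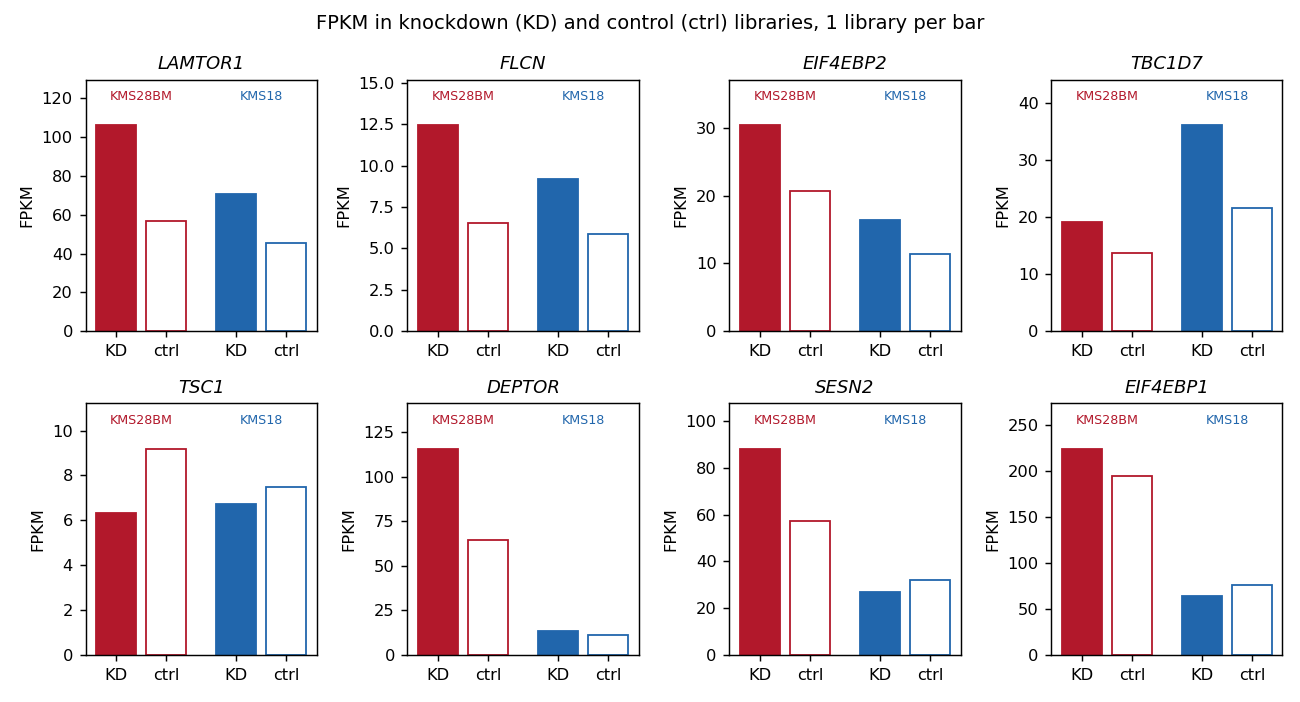
FPKM of 8 members in each library (1 bar per library; KD, knockdown, filled; ctrl, control, open; red KMS28BM, blue KMS18), with every axis starting at 0. LAMTOR1, FLCN, EIF4EBP2 and TBC1D7 are higher in both knockdowns and TSC1 is lower in both, while SESN2 and EIF4EBP1 are higher in the KMS28BM knockdown and lower in the KMS18 knockdown.

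Among the Rag GTPases, which work as pairs of RRAGA or RRAGB with RRAGC or RRAGD, none passed the test. RRAGA came closest, at 31.69 FPKM in the KMS28BM knockdown, against 23.77 FPKM in the control, and at 28.99 FPKM in the KMS18 knockdown, against 18.72 FPKM in the control. Its log2 difference was 0.45 (SE 0.11, edgeR adjusted p = 0.0542), and the adjusted p was 0.0471 with the filter at 5 CPM. RRAGB was at 5.58 and 7.92 FPKM in the KMS28BM and KMS18 knockdowns, against 5.37 and 4.25 FPKM in the controls, so its FPKM gap lay in KMS18. In KMS28BM its gene length was also longer in the knockdown, and on TMM-scaled counts its change was 0.20 in KMS28BM and 0.90 in KMS18. RRAGD was at 48.21 and 25.17 FPKM in the KMS28BM and KMS18 knockdowns, against 32.24 and 22.47 FPKM in the controls, so its gap lay in KMS28BM. RRAGC had a log2 difference of 0.09 (edgeR adjusted p = 0.71). RRAGA and RRAGB have closely similar coding sequences, and the counting could split reads between them.

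The kinase complex itself had no call in the knockdown comparison. MTOR, the catalytic subunit, had a log2 difference of 0.11, and RPTOR, the substrate-binding subunit, had 0.19. MLST8, shared with mTORC2, had 0.18, and AKT1S1, which encodes the inhibitor PRAS40, had 0.06, with edgeR adjusted p from 0.274 to 0.81 for these 4. DEPTOR, an inhibitory subunit known for high expression in a subset of myelomas, was at 115.64 FPKM in the KMS28BM knockdown, against 64.73 FPKM in the control. In KMS18 it was at 13.36 FPKM in the knockdown, against 11.22 FPKM in the control. Taken over both lines, DEPTOR had 0.49 (SE 0.14) and missed the threshold (edgeR adjusted p = 0.08), with 0.76 in KMS28BM and 0.20 in KMS18 on TMM-scaled counts. RHEB had 0.28 (SE 0.09) and also missed it (edgeR adjusted p = 0.11), with 0.29 in KMS28BM and 0.28 in KMS18.

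No member of GATOR1 or GATOR2, which relay amino acid levels to the Rag GTPases, passed the test. GATOR1, the GTPase activator of RRAGA and RRAGB, had log2 differences of 0.15 for DEPDC5, -0.10 for NPRL2 and 0.00 for NPRL3, with edgeR adjusted p from 0.533 to 0.998. The 4 members of GATOR2, which counters GATOR1, had log2 differences between -0.08 for MIOS and 0.10 for WDR24, with edgeR adjusted p from 0.651 to 0.835. SEC13, a GATOR2 subunit outside the members, had -0.26 (edgeR adjusted p = 0.137). The intervals still allow changes: that of MIOS ran from -0.43 to 0.28 and that of NPRL3 from -0.23 to 0.23.

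SESN2, a leucine sensor and stress-induced binder of GATOR2, had differences of opposite sign in the 2 lines, and the contrast between lines was not tested. It was at 88.15 FPKM in the KMS28BM knockdown, against 57.07 FPKM in the control, and at 27.00 FPKM in the KMS18 knockdown, against 32.05 FPKM in the control. The log2 ratio of counts per total was 0.63 in KMS28BM (95% interval for counting error 0.59 to 0.67) and -0.25 in KMS18 (-0.31 to -0.18). Over both lines the difference was 0.13 (SE 0.19, edgeR adjusted p = 0.733). SESN1, a homologue induced by p53, was at 11.05 and 10.12 FPKM in the KMS28BM and KMS18 knockdowns, against 13.65 and 9.04 FPKM in the controls (edgeR adjusted p = 0.356).

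Among the effectors, EIF4EBP2 alone passed, and its paralogue did not. EIF4EBP1 was at 224.56 FPKM in the KMS28BM knockdown, against 194.52 FPKM in the control, and at 64.06 FPKM in the KMS18 knockdown, against 76.59 FPKM in the control (edgeR adjusted p = 0.801). The FPKM ratio of EIF4EBP1 to EIF4EBP2 was 7.38 and 3.9 in the KMS28BM and KMS18 knockdowns, against 9.42 and 6.72 in the controls. RPS6KB2, the S6 kinase S6K2, was at 91.45 and 45.46 FPKM in the KMS28BM and KMS18 knockdowns, against 55.46 and 36.03 FPKM in the controls. Its log2 difference of 0.45 (SE 0.12) missed the threshold with edgeR (adjusted p = 0.0605) and passed with DESeq2 (adjusted p = 0.0422). RPS6KB1, the paralogue S6K1, had a log2 difference of -0.19 (edgeR adjusted p = 0.281). The FPKM ratio of RPS6KB2 to RPS6KB1 was 4.22 and 2.32 in the KMS28BM and KMS18 knockdowns, against 2.4 and 1.6 in the controls.

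Within single lines, sizes alone can be given. Members past a difference of 0.5 on log2(FPKM + 1), at 1 FPKM or more, were 7 higher and 0 lower in KMS28BM, where 9.03% of 11455 genes were higher and 5.6% lower. In KMS18 they were 5 higher and 0 lower, where 8.18% of 11742 genes were higher and 5.93% lower. LAMTOR1 and FLCN passed in both lines. DEPTOR, RRAGD, SESN2, EIF4EBP2 and RPS6KB2 passed in KMS28BM, and TBC1D7, RRAGA and RRAGB in KMS18. On TMM-scaled counts, 18 members lay above 0 in both lines, 5 lay below 0 in both and 12 had opposite signs. The difference between the lines in the knockdown effect could not be tested, because no residual degrees of freedom remain.

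Between the lines, with the knockdown and control library of each line as its 2 values, 16 members were higher and 6 lower in KMS28BM, or 62.9% of the members, at the same share as all genes (62.9% called, 30.6% higher and 32.3% lower). The median log2 difference of the members was 0.25, against -0.021 for all tested genes. All 5 subunits of the kinase complex were higher in KMS28BM. DEPTOR was at 115.64 and 64.73 FPKM in the KMS28BM knockdown and control, against 13.36 and 11.22 FPKM in the KMS18 knockdown and control (log2 difference 2.74, SE 0.15, edgeR adjusted p = 1.18e-05). MTOR was at 44.40 and 40.15 FPKM in the KMS28BM knockdown and control, against 13.24 and 12.10 FPKM in KMS18 (log2 difference 1.64, SE 0.10). The FPKM ratio of DEPTOR to MTOR was 2.6 and 1.61 in the KMS28BM knockdown and control, against 1.01 and 0.927 in the KMS18 knockdown and control. MLST8, AKT1S1 and RPTOR had log2 differences of 0.82, 0.80 and 0.58.

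**Figure D5:**
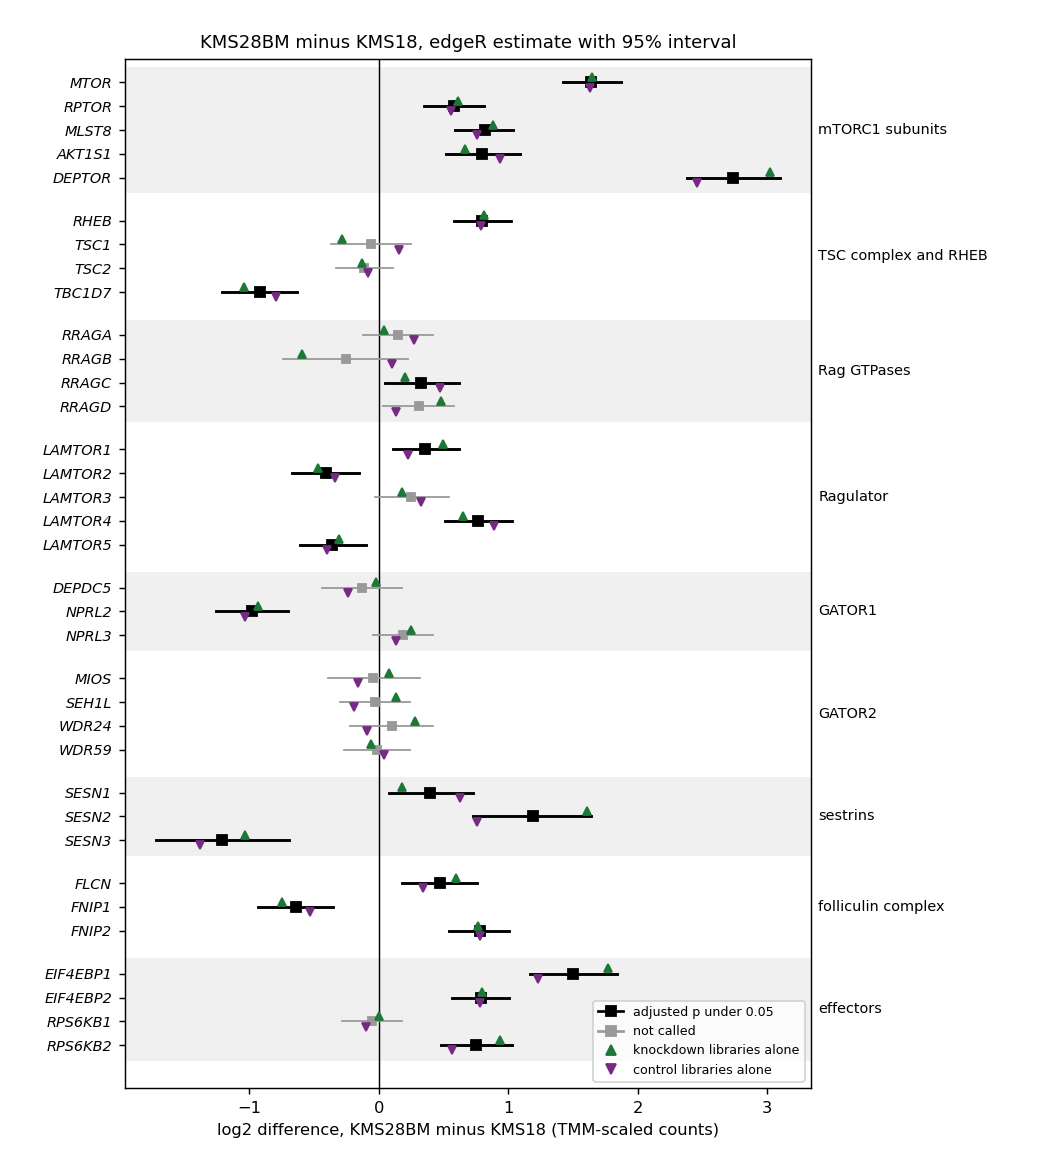
Log2 difference, KMS28BM minus KMS18, of each member on TMM-scaled counts: squares with bars are the edgeR estimate with its 95% interval (black where the adjusted p was under 0.05, grey otherwise), and triangles are the difference among knockdown libraries (green, up) and control libraries (purple, down) alone. The 5 subunits of the kinase complex lie right of 0, with DEPTOR at 2.74, and the 4 GATOR2 subunits plotted lie at 0.10 or nearer to 0.

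EIF4EBP1 was also higher in KMS28BM (log2 difference 1.50, SE 0.14), as were SESN2 (1.19, SE 0.19), RHEB (0.80), EIF4EBP2 (0.79), FNIP2 (0.78), LAMTOR4 (0.77) and RPS6KB2 (0.75). FLCN, SESN1, LAMTOR1 and RRAGC were higher by smaller amounts, from 0.33 to 0.47, and all 4 calls were lost without the construct term (edgeR adjusted p from 0.139 to 0.379). That setting also lost RPS6KB2 (edgeR adjusted p = 0.0512). With limma without a filter, RPS6KB2 and SESN2 were lost (limma adjusted p = 0.069 and 0.108). That setting also lost FLCN, SESN1, LAMTOR1 and RRAGC (limma adjusted p = 0.195, 0.265, 0.102 and 0.105). FLCN and SESN1 were lost in all 3 limma settings. DESeq2 also lost RRAGC and SESN1 (adjusted p = 0.129 and 0.0937). The SESN1 difference was 0.18 among knockdown libraries and 0.63 among control libraries. Lower in KMS28BM were SESN3 (-1.21, SE 0.22), NPRL2 (-0.98, SE 0.12), TBC1D7 (-0.92, SE 0.12) and FNIP1 (-0.64, SE 0.12). SESN3, under 1 FPKM in every library, was lost with limma without a filter (difference -0.41, limma adjusted p = 0.0646). The limma settings with a filter left SESN3 out. LAMTOR2 and LAMTOR5 were lower by smaller amounts, -0.41 and -0.36. Both calls were lost with DESeq2 (adjusted p = 0.0552 and 0.107), in the 3 limma settings and without the construct term. NPRL2, the GATOR1 subunit with catalytic activity, was at 10.51 and 10.24 FPKM in the KMS28BM knockdown and control, against 18.43 and 18.99 FPKM in the KMS18 knockdown and control. NPRL2 shares 10.8% of its exonic bases with CYB561D2 on the opposite strand. Larger shares were those of WDR24 with Z92544.2 (35.7%), LAMTOR4 with C7orf43 (18.4%) and LAMTOR5 with LAMTOR5-AS1 (17.5%), all on the opposite strand. RRAGC shares 22.9% with AL139260.2 on the same strand. Exons of 24 members overlap another gene. None of the 4 GATOR2 subunits among the members passed, with log2 differences between -0.04 and 0.10. SEC13, a further GATOR2 subunit that is not a member, was lower in KMS28BM (log2 difference -0.88, edgeR adjusted p = 0.000228).

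Around these members, the wider pathway was read from 5 lists of other genes. Among growth factor and energy inputs, 2 of 16 tested genes rose and 0 fell, where 3.57% of all tested genes rose and 5.25% fell. Both calls were lost without a filter on low counts, in the 3 limma settings and without the cell line term. STK11, the kinase LKB1 that activates AMPK, was at 34.34 and 31.52 FPKM in the KMS28BM and KMS18 knockdowns, against 20.81 and 25.15 FPKM in the controls (log2 difference 0.52, SE 0.11, edgeR adjusted p = 0.0326). PIK3CA, a catalytic subunit of PI3 kinase, had a log2 difference of -0.40 (edgeR adjusted p = 0.0605). The list's median was 0.08, and PRKAA2 and DDIT4L had no listed value.

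Of 16 substrates and effectors outside the members, 0 rose and 1 fell. LPIN1, a phosphatidate phosphatase and mTORC1 substrate, was at 18.05 and 41.74 FPKM in the KMS28BM and KMS18 knockdowns, against 27.20 and 48.86 FPKM in the controls (log2 difference -0.49, SE 0.11, edgeR adjusted p = 0.0465). The list also had 1 lower call with DESeq2 and 0 in the other 7 settings tried. TFEB and TFE3, transcription factors that mTORC1 holds in the cytoplasm, had log2 differences of 0.13 and 0.09 (edgeR adjusted p = 0.529 and 0.689). The median of that list was 0.07. None of 9 tested amino acid sensors and KICSTOR genes passed, nor any of 4 mTORC2 subunits or 5 complex assembly genes, with medians of 0.06, 0.33 and -0.06. DESeq2 also called 0 in these 3 lists. At an unadjusted p under 0.05 these 3 lists held SEC13 alone, PRR5L and MAPKAP1, and no gene. The list written for amino acid sensors also holds CASTOR1, which had too few counts to be tested. Between lines, KPTN, a KICSTOR subunit, was at 21.87 and 19.06 FPKM in the KMS28BM knockdown and control, against 2.95 and 3.24 FPKM in the KMS18 knockdown and control (log2 difference 2.74, edgeR adjusted p = 2.05e-05).

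TFEB and TFE3 bind the word CACGTG within a longer element, TCACGTGA, in promoters of lysosomal genes and of some mTORC1 regulators. RefSeq promoters of GRCh38.p14, from 250 bases before to 50 after the start, were found for 28 of the 35 members. CACGTG, read on both strands, stood in 7 of these 28 and in 8.77% of all 27305 genes with such a promoter. TCACGTGA, which contains it, stood in 2 of 28 and in 1.18% of those genes. The 27305 include genes that were not tested here, so they are unlike the members, and the share among tested genes was not computed. All 5 members called in the knockdown were among the 28, and of these 5 LAMTOR1 alone held CACGTG in this window. The other members with CACGTG, namely FNIP1, LAMTOR4, NPRL3, RRAGB, RRAGC and TSC2, were not called in the knockdown. TCACGTGA stood in RRAGB and TSC2 and not in LAMTOR1. The part of these words in any change was not tested. For LAMTOR1, 30 bases are shown with the word in capitals, on the minus strand at chr11:72103444-72103473, with the word beginning 165 bases before the start.
LAMTOR1 promoter: tttccccgcatCACGTGcttgcgtgtacgg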

How the data were processed

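The authors deposited a table of genes for every library. Its expected count column holds the authors' estimated number of fragments per gene, not normalized, per the file headers. The deposited FPKM column scales these to the authors' gene length and to library size. The builds GRCh37 and hg19 and the tools STAR, Bowtie2 and HISAT stand in the submitters' processing notes without roles, and no source used here names the counting program. Positions and sequences are those of GENCODE version 29 and RefSeq on GRCh38, matched by gene and not converted. Per the labels' protocols, libraries came from total RNA with a TruSeq kit, which does not keep strand. Identifiers without a symbol held 0.673% to 0.973% of counts and were kept as genes.

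Counts were summed by symbol, rounded and tested with edgeR 4.0.16 (R 4.3.3) under TMM scaling, the default filter (minimum count 10), cell line and construct in the model, and adjusted p under 0.05. This left 1 residual degree of freedom, with a prior of 5.85. Libraries pair by cell line: deviations of a line's libraries from their group means had a correlation of 0.951. Alternatives used DESeq2 1.42.0 and limma 3.58.1. Intervals on single libraries are exact (95%) and cover counting error only.

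The member list was fixed and used no measured value. Earlier results of these data were known when it, the lists and the words were chosen. FPKM is given for members called in the knockdown or past 0.5 within a line, and for up to 4 called genes per list and direction. Members called between the lines have a log2 difference or its range, and some also have FPKM. The member with a length change of 20% has its lengths. Others were added after their values were seen. A gene counted in those lists is not reported here.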

Additional observations from a re-analysis of the deposited data

Results flagged for a closer look

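Members moved in opposite directions in the 2 lines with both counting intervals away from 0 in 3 cases, and the difference between lines was not tested. SESN2 had log2 count ratios, knockdown over control, of 0.63 in KMS28BM and -0.25 in KMS18. EIF4EBP1 had 0.27 in KMS28BM and -0.29 in KMS18, and SEH1L, a GATOR2 and nuclear pore subunit, had 0.19 in KMS28BM and -0.15 in KMS18. Each ratio compares 1 library with 1 library.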

How the results depend on the processing

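Over all genes, 1312 were called in the knockdown (531 higher, 781 lower). Without a filter on low counts there were 367 (124 higher, 243 lower), and limma on log2(FPKM + 1) gave 117 (50 higher, 67 lower). With limma on log2(FPKM + 0.1), limma without a filter, and edgeR without the replicate block of cell line, 0 were called, and 2861, 3674 and 215 genes had an unadjusted p under 0.05. Leaving out each library in turn without the block gave 0 to 0 calls, with 27 to 46 genes at that unadjusted p.

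Of the members, 5 were called, and 0 (0 higher, 0 lower) without a filter, in the 3 limma settings and without the block. With 5 CPM in at least 2 libraries, 6 were higher and 0 lower, RRAGA and RPS6KB2 being added and TSC1 lost. Growth factor and energy inputs went to 0 higher in those same 5 settings. Substrates and effectors went to 0 lower in them, with median of ratios scaling and at 5 CPM. Within KMS28BM, 1 member was lower, not 0, on log2(FPKM + 0.1) and on TMM-scaled counts.

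Between lines, limma without a filter called 5847 genes (2669 lower) and 13 members (10 higher), and each limma setting called 3 members lower. Leaving out each library in turn, without the construct term, called 5174 (control of KMS18 left out), 5034 (its knockdown), 5021 (control of KMS28BM) and 5021 genes (its knockdown). In that order 2347, 2340, 2359 and 2315 were higher and 2827, 2694, 2662 and 2706 lower.

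Signs turned in members that were not called. For the knockdown these were LAMTOR5 (-0.00065) and NPRL3 (-0.0072) without a filter and EIF4EBP1 (0.053) without the block. In the 3 limma settings, DEPDC5 had -0.0086, -0.0095 and -0.0086 and MIOS had 0.021, 0.025 and 0.021. Between lines, limma gave TSC1 0.091, 0.10 and 0.091, MIOS 0.11, 0.13 and 0.11, SEH1L 0.13, 0.14 and 0.13, WDR59 0.054, 0.056 and 0.054, and RPS6KB1 0.089, 0.093 and 0.089. WDR59 had 0.0016 with median of ratios scaling and with DESeq2. The causes were not tested. Each member has 1 identifier, so taking the highest of several was not run. With 1 library per line and construct, leaving out a line leaves a value with no test.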
